A study of Mus musculus with 6 samples.

Results

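The proteasome subunit genes described here are the mouse genes whose symbol is Psma, Psmb, Psmc or Psmd followed by a number. The deposited table holds 39 such genes among 29072 genes with an identifier, and 37 of them reached a mean of at least 1 RPKM (reads per transcript length and sequencing depth) in either group. The 2 others, Psma8 of testis and Psmb11 of the thymus, were listed at or near 0 in every library and were not tested. By subunit class the tested members were 7 Psma genes, 7 constitutive Psmb genes, the 3 inducible Psmb genes Psmb8, Psmb9 and Psmb10, 6 Psmc genes and 14 Psmd genes. The study sequenced RNA of brown adipose tissue from between the shoulder blades, a fat that makes heat. It compared mice of genotype UCP1(-/-), which lack the uncoupling protein of brown fat, with wildtype mice, all of strain C57BL/6J, with 3 libraries in each group. The labels give no age, sex, housing temperature or kind of allele, and do not say whether each library is a single animal, so p-values measure the spread between these libraries, which may be technical. In a bulk sample, fewer cells of a type and less RNA per cell cannot be told apart.

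The proteasome is the large protease that degrades proteins tagged with ubiquitin. Its barrel, the 20S core, is built of rings of Psma and Psmb proteins, and Psmb5, Psmb6 and Psmb7 carry the active sites. The 19S regulatory particle caps the barrel: the Psmc proteins form a ring of ATPases that unfolds the substrate, and most Psmd proteins form the base and lid that bind and strip ubiquitin. Interferon induces Psmb8, Psmb9 and Psmb10, which take the places of Psmb5, Psmb6 and Psmb7 and form the immunoproteasome, a main source of peptides for class I antigen presentation. In brown fat the transcription factor NFE2L1 is known to raise proteasome subunit genes during cold.

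The libraries held 15800000 to 18000000 reads each, as worked out from the low values of the table. Ucp1 itself was listed at 375, 389 and 372 RPKM in the knockout libraries and at 3096, 1714 and 3151 RPKM in the wildtype libraries, so the knockout libraries were all far below the wildtype. The labels do not say which part of the gene was removed, and the remaining signal was not examined. Across 11562 tested genes, limma with Benjamini-Hochberg adjustment called 887 (7.67%) at an adjusted p under 0.05, of which 804 were higher and 83 lower in the knockout. After the libraries were scaled to each other by the median of ratios over tested genes it called 646 (5.59%), of which 494 were higher and 152 lower. Over all tested genes the median log2 change stood at 0.075 without scaling and at -0.007 with it, so small changes are given on both scales.

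The transcripts of the proteasome differed little between the genotypes. Of the 37 tested members, 1 passed the test: Psmd4, a ubiquitin receptor of the regulatory particle, rose in the knockout by 0.36 on the log2(RPKM + 1) scale. That is 2.70% of the members, beside 7.67% of all tested genes. The median log2 change of the 37 members was 0.06, beside 0.08 over all tested genes, and 25 of the 37 lay above 0, where 68.5% of all genes did. After scaling, no member passed, the median was -0.04 beside -0.01 over all genes, and 14 of the 37 lay above 0 beside 48.4% of all genes. At an unadjusted p under 0.05 in limma there were 4 members as deposited (Psmd4, Psmd7, Psmc2 and Psmc6) and 2 after scaling, where 23.5% and 21.1% of all genes met that mark.

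**Figure D1:**
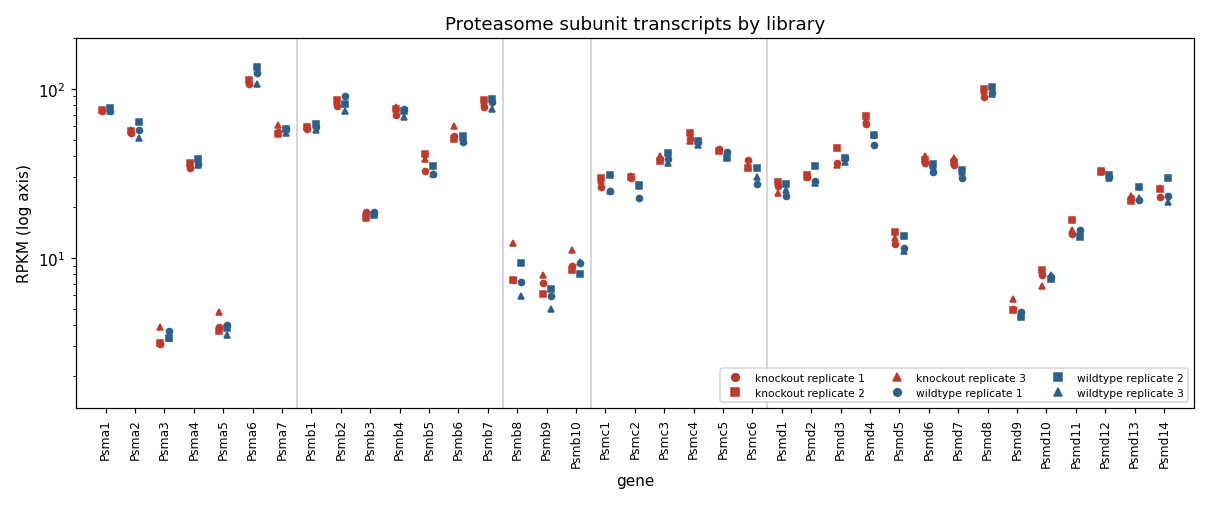
RPKM on a log axis of each of the 37 tested members in the 3 knockout (red) and 3 wildtype (blue) libraries, ordered by class, with grey lines between classes. Levels ran from about 3 RPKM for Psma3 to over 100 RPKM for Psma6. Within most genes the libraries lay close together, but Psmb8 ran from 5.98 to 12.2 RPKM and Psmd4 from 46.2 to 69.1 RPKM.

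The interval around each member's change holds for that gene alone, so the extremes given here are not a joint bound on all members. The 95% intervals of all 37 members lay between -0.36 and 0.67 on the log2 scale, and between -0.46 and 0.60 after scaling. The upper end belonged to Psmb8, which had the largest SE of all members (0.20). Without Psmb8 to Psmb10, intervals of the 20S genes reached from -0.36 to 0.41 and those of the 19S genes from -0.26 to 0.55.

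**Figure D2:**
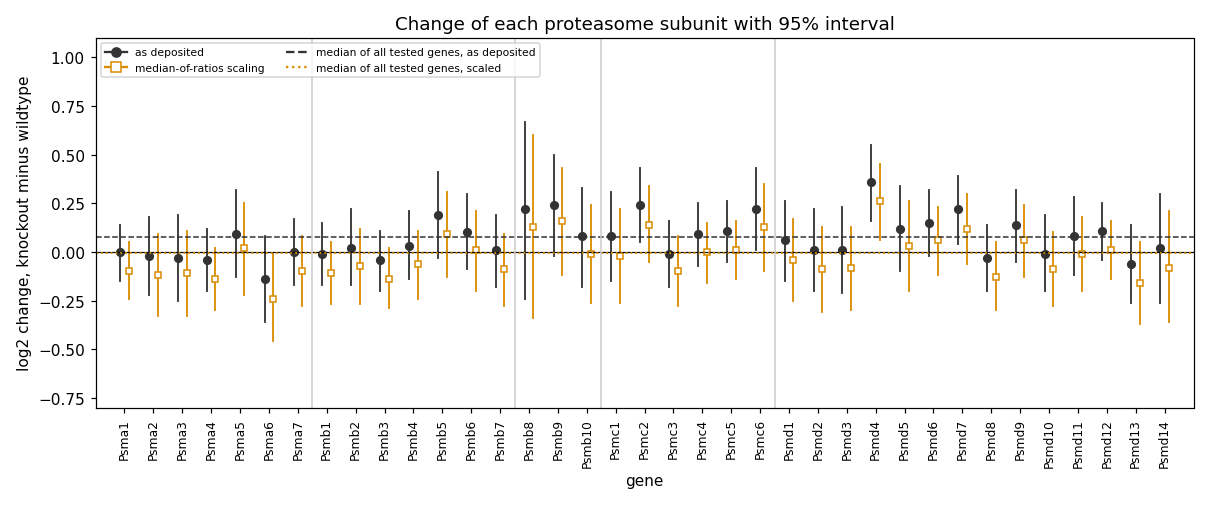
Log2 change (knockout minus wildtype, on the log2(RPKM + 1) scale) of each member with its 95% interval, as deposited (filled circles) and after median-of-ratios scaling (open squares); dashed and dotted lines mark the medians of all tested genes. Psmd4 stands highest at 0.36 as deposited and 0.26 scaled, and scaling moves 11 members across 0.

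The Psma genes encode the outer rings of the barrel, which gate its entrance. None of the 7 passed limma's test (0 at an unadjusted p under 0.05), their median log2 change was -0.02 as deposited and -0.11 after scaling, and 1 of 7 lay above 0 on either scale. Psma6, the most abundant member, measured 107, 112 and 111 RPKM in the knockout and 124, 135 and 106 RPKM in the wildtype. Wildtype replicates 1 and 2 were above all knockout libraries and wildtype replicate 3 was below them. Its log2 change of -0.14 (95% interval -0.36 to 0.08, limma adjusted p 0.425) was the lowest of all members, and -0.24 after scaling.

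Psma1 was the steadiest of the class, at 74.2, 75.1 and 75.1 RPKM in the knockout and 74.1, 76.5 and 73.9 RPKM in the wildtype. The 2 groups overlapped, and the interval of its change ran from -0.15 to 0.14. Psma7 had group means of 56.8 RPKM ± 3.91 (SD, n = 3) and 56.8 RPKM ± 1.68, and Psma2 of 55.9 RPKM ± 0.982 and 57.1 RPKM ± 6.09. Psma4 was lower, at 35.4 RPKM ± 1.3 in the knockout and 36.5 RPKM ± 1.56 in the wildtype. For these 4 genes the groups overlapped as deposited. After scaling, Psma1, Psma4 and Psma6 had all wildtype values above all knockout values, without passing the test.

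Psma3 and Psma5 were listed far below the other Psma genes, although a barrel needs every Psma protein in equal number. Psma3 measured 3.09, 3.14 and 3.91 RPKM in the knockout and 3.71, 3.35 and 3.35 RPKM in the wildtype. Psma5 measured 3.90, 3.70 and 4.78 RPKM against 4.02, 3.85 and 3.49 RPKM. Neither differed between groups beyond its spread. Of the 50-base windows of the Psma5 transcript, 55.4% also occur in transcripts of other genes, pseudogenes among them, and of Psma3 22.0%. Such windows were also frequent in Psmb5 (57.1%), Psmb3 (55.8%), Psma4 (31.5%), Psmb7 (28.1%) and Psmd2 (26.4%), and their part in the listed levels was not tested. Reads of shared windows may have been split or dropped, so the levels of these genes are uncertain. Psmd1, Psma4 and Psmd10 overlap other genes (Htr2b, AY074887 and Atg4a) in the RefSeq gene table, and without strand their reads cannot be told apart. No window was shared for Psmd4, Psmc2, Psmc3, Psmc4, Psmc5, Psmd6, Psmd7 and Psmd12.

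The constitutive Psmb genes encode the inner rings. None of the 7 passed limma's test (0 at an unadjusted p under 0.05), and their median log2 change was 0.02 as deposited and -0.07 after scaling. The structural subunits Psmb1, Psmb2, Psmb3 and Psmb4 had knockout means of 59.0, 83.0, 17.7 and 74.5 RPKM and wildtype means of 59.5, 81.8, 18.3 and 72.8 RPKM. Their log2 changes lay between -0.04 and 0.03. Among the catalytic subunits, Psmb5 (the chymotrypsin-like site) measured 32.7, 40.9 and 38.3 RPKM in the knockout and 31.4, 34.9 and 31.2 RPKM in the wildtype. Knockout replicates 2 and 3 exceeded every wildtype library, and replicate 1 did not. Its log2 change was 0.19 (95% interval -0.03 to 0.41, limma adjusted p 0.277) and 0.09 after scaling. Psmb6 (the caspase-like site) measured 52.4, 50.4 and 60.3 RPKM against 48.3, 52.3 and 50.8 RPKM. Psmb7 (the trypsin-like site) measured 77.6, 86.0 and 82.7 RPKM against 83.6, 86.4 and 75.5 RPKM. Both overlapped between the groups, with log2 changes of 0.10 and 0.01.

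The inducible catalytic subunits were expressed in both genotypes at a fraction of their constitutive partners, and none of the 3 passed limma's test (0 at an unadjusted p under 0.05). Psmb8 measured 7.40, 7.36 and 12.2 RPKM in the knockout and 7.21, 9.32 and 5.98 RPKM in the wildtype. Knockout replicate 3 stood above every other library, and the other 2 knockout libraries lay within the wildtype range. Its log2 change was 0.22 with an SE of 0.20 (95% interval -0.24 to 0.67, limma adjusted p 0.560). Psmb9 measured 7.05, 6.13 and 7.91 RPKM against 5.92, 6.50 and 4.96 RPKM. Here 2 knockout libraries exceeded the wildtype range and replicate 2 did not, and the log2 change was 0.24 (95% interval -0.02 to 0.50, limma adjusted p 0.245). Psmb10 measured 8.95, 8.48 and 11.1 RPKM against 9.30, 8.0 and 9.49 RPKM, with a log2 change of 0.08 (limma adjusted p 0.721). After scaling, the changes were 0.13, 0.16 and -0.01. Knockout replicate 3 was the highest and knockout replicate 2 the lowest knockout library for all 3 genes. Without knockout replicate 3 the log2 changes of Psmb8, Psmb9 and Psmb10 were 0.00, 0.16 and -0.03, and without wildtype replicate 3 they were 0.08, 0.15 and 0.12.

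The ratio of an inducible subunit to the one it replaces is free of library scaling. Psmb8 to Psmb5 was 0.226, 0.180 and 0.318 in the knockout and 0.229, 0.267 and 0.192 in the wildtype. Psmb9 to Psmb6 was 0.134, 0.122 and 0.131 against 0.123, 0.124 and 0.0976. Psmb10 to Psmb7 was 0.115, 0.0986 and 0.135 against 0.111, 0.0926 and 0.126. The groups overlapped for all 3 ratios. The log2 differences were 0.05, 0.18 and 0.08, with two-sided exact permutation p-values of 1.0, 0.300 and 0.70, and none was below 0.900 after adjustment over the 3 ratios. With 3 against 3 libraries the test cannot go below 0.1. The first ratio turned to -0.17 without knockout replicate 3 and to -0.08 without wildtype replicate 3. The last turned to -0.03 without knockout replicate 3 and to -0.04 without wildtype replicate 2. Psmb5 and Psmb7 share windows with other genes, so the size of these ratios is uncertain.

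**Figure D3:**
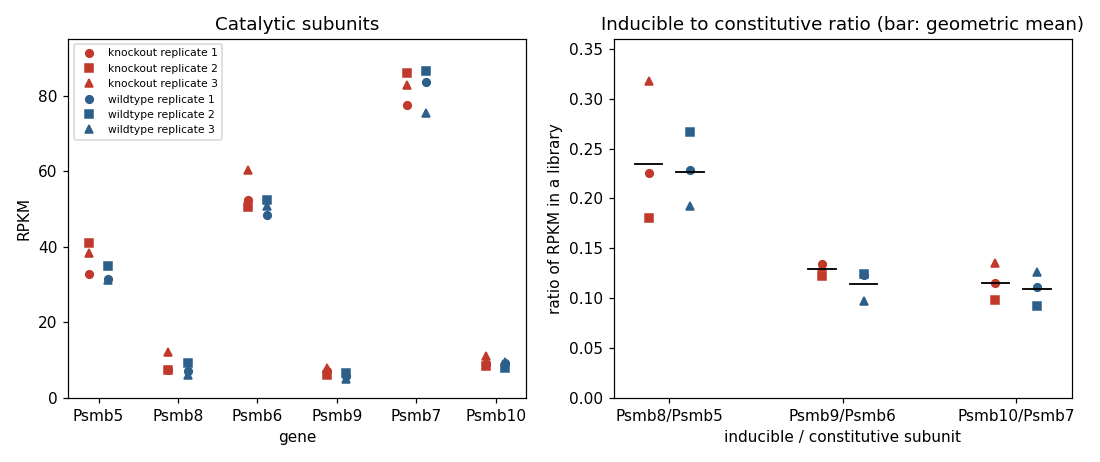
Left, RPKM of the constitutive catalytic subunits Psmb5, Psmb6 and Psmb7, each beside the inducible subunit that replaces it, in the 3 knockout (red) and 3 wildtype (blue) libraries; right, the ratio within each library, with bars at the geometric mean. All 3 ratios overlap between the groups, and the Psmb8 to Psmb5 ratio of 0.318 in knockout replicate 3 is the highest.

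The start regions of 2 such pairs are shown because the inducible and the constitutive gene of a pair are known to be controlled differently. For the third pair, Psmb10 and Psmb7, no match was listed, and it is not shown. Each run is the 250 bases before the RefSeq start, 5′ to 3′ on the gene's strand, in build GRCm38.p6. Capitals mark TGACNNNGC (the antioxidant response element core, which NFE2L1 and its relatives can bind) in Psmb5 and Psmb6, TTCNNNGAA (a STAT site) in Psmb8 and CCAAT, here as its reverse complement, in Psmb9.
Psmb5, chr14:54617996-54618245, minus strand: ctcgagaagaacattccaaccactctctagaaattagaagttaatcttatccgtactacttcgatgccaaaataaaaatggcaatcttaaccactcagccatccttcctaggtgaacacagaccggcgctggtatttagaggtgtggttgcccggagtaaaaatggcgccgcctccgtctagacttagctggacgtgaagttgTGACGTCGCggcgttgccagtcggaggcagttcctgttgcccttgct
Psmb8, chr17:34197945-34198194, plus strand: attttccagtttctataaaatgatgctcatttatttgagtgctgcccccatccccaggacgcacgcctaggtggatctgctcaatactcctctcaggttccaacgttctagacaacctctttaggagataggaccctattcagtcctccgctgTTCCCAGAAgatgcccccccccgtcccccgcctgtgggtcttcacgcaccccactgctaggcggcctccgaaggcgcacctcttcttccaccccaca
Psmb6, chr11:70525107-70525356, plus strand: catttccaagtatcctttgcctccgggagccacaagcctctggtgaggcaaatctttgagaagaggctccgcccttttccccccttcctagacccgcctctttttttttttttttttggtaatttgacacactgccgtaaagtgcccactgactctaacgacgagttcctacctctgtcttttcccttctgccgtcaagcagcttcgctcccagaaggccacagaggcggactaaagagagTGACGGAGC
Psmb9, chr17:34187331-34187580, minus strand: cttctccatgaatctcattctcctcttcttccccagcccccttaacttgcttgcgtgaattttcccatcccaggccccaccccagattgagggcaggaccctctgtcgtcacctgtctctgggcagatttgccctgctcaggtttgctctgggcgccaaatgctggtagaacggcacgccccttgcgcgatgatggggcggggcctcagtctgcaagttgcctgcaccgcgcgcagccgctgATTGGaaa
The TGACNNNGC match lies 47 to 39 bases before the start of Psmb5 and 9 to 1 bases before that of Psmb6, and the TTCNNNGAA match 97 to 89 bases before that of Psmb8. A looser form of the first pattern, TGANNNNGC, is not marked and also lies 60 to 52 bases before the start of Psmb9. Psmb9 shares its start region with Tap1, the peptide transporter gene on the opposite strand, and the 250 bases before each start overlap by 225 bases. Tap1 measured 3.79, 4.42 and 6.11 RPKM in the knockout and 3.05, 2.84 and 3.44 RPKM in the wildtype. All knockout values were above all wildtype values, with a log2 change of 0.47 that did not pass (limma adjusted p 0.0869). Tap1 passed with the replicate number as a block (limma adjusted p 0.0486), among alternatives from 0.0486 to 0.185, and its change was 0.31 without knockout replicate 3 (0.161). Tap1 was picked for this neighbourhood after its values were seen. From these starts the 2 genes run away from each other. Where other transcripts of the 2 genes overlap, reads could not be told apart, since the use of strand is not stated. Of the 50-base windows of Psmb9, 12.5% were shared with other genes.

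The 6 Psmc genes of the ATPase ring had a median log2 change of 0.10 as deposited and 0.00 after scaling, and none passed limma's test (2 at an unadjusted p under 0.05). Psmc2 measured 29.7, 30.0 and 30.3 RPKM in the knockout and 22.5, 26.9 and 26.6 RPKM in the wildtype. The knockout libraries agreed closely and all lay above the wildtype, where replicate 1 was the lowest. Its log2 change was 0.24 (95% interval 0.05 to 0.43, limma adjusted p 0.129) and 0.14 after scaling. Psmc6 measured 37.9, 34.1 and 34.8 RPKM against 27.5, 33.9 and 29.9 RPKM. The groups were parted by a narrow gap between knockout replicate 2 and wildtype replicate 2, and the log2 change was 0.22 (limma adjusted p 0.185). Psmc4 measured 50.3, 54.4 and 49.4 RPKM against 48.4, 48.9 and 46.7 RPKM, and Psmc5 measured 43.9, 42.8 and 43.6 RPKM against 42.3, 39.2 and 39.4 RPKM. Both were parted in the same way, with log2 changes of 0.09 and 0.11 that were at 0.00 and 0.01 after scaling. Psmc1 and Psmc3 overlapped, with means of 28.2 RPKM ± 1.65 against 26.8 RPKM ± 3.62 and of 38.6 RPKM ± 1.34 against 38.8 RPKM ± 2.52 (SD, n = 3 each).

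Psmd4 (also known as Rpn10) captures ubiquitin chains on the regulatory particle. It measured 61.8, 69.1 and 65.6 RPKM in the knockout and 46.2, 53.5 and 53.4 RPKM in the wildtype. Every knockout library was above every wildtype library, and wildtype replicate 1 was the lowest. The means were 65.5 RPKM ± 3.65 and 51.0 RPKM ± 4.17 (SD, n = 3), the log2 change was 0.36 with an SE of 0.08 (95% interval 0.16 to 0.55), and the limma adjusted p was 0.0398. All 10 transcript rows of the gene were higher in the knockout without overlap, but rows of a gene share reads. The call was lost after scaling, where the log2 change was 0.26 (adjusted p 0.128), and over 15 alternatives the limma adjusted p ran from 0.0371 to 0.15. It was also lost without knockout replicate 1, 2 or 3 (0.0796, 0.15 and 0.104) and without wildtype replicate 1 or 3 (0.109 and 0.0536), with log2 changes from 0.29 to 0.40.

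The start region of Psmd4 is shown because it is the member that passed. Capitals mark CCAAT and the core of an interferon-stimulated response element (GAAA, 2 bases of any kind, then GAAA again), both as their reverse complements.
Psmd4, chr3:95042615-95042864, minus strand: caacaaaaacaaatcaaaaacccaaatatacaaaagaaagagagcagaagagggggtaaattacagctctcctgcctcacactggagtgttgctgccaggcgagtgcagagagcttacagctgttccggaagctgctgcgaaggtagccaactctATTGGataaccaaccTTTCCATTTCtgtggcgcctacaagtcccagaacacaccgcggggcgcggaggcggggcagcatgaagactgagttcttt
Across the 7 patterns searched on both strands of the 250 bases before each start, TGACNNNGC occurred in 5 of 34 start regions of 32 matched members (14.7%) and in 10.2% of all 32851 start regions. The 5 genes were Psmb5, Psmb6, Psmc6, Psmd9 and Psmd12, with log2 changes from 0.10 to 0.22 as deposited and from 0.01 to 0.13 after scaling. CCAAT occurred in 38.2% of members' regions and 33.8% of all, and the interferon-stimulated core in 8.8% (Psmb3, Psmd4 and Psmd9) and 3.0%. TGANNNNGC, which contains TGACNNNGC, occurred in 41.2% and 35.2%, and TGACNNNGC with an A on either side in 0 of 34 and 0.5%. Tested members with CCAAT had log2 changes from -0.14 to 0.36 as deposited, and those with TGANNNNGC from -0.14 to 0.24. GGAAGTG (an ETS site) occurred in 11.8% and 8.6%, and TTCNNNGAA in 2.9% (Psmb8) and 7.0%. The patterns to mark were chosen after the matches were seen, and a match of letters is a description, not a binding site.

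The other Psmd genes followed the same narrow range. The class of 14 had a median log2 change of 0.07 as deposited and -0.02 after scaling, and Psmd4 was the only member of it to pass. Psmd7, the partner of the deubiquitinase in the lid, measured 35.2, 36.9 and 38.8 RPKM in the knockout and 29.8, 33.2 and 32.1 RPKM in the wildtype. The groups did not overlap, and the log2 change was 0.22 (95% interval 0.04 to 0.39, limma adjusted p 0.126). Psmd14, the deubiquitinase itself, measured 22.8, 25.7 and 26.0 RPKM against 23.2, 29.7 and 21.3 RPKM, and the groups overlapped. Of the other lid subunits, Psmd6 measured 36.6, 38.1 and 40.1 RPKM against 32.4, 35.7 and 34.9 RPKM, and Psmd12 measured 32.7, 32.7 and 32.2 RPKM against 29.9, 31.0 and 29.5 RPKM. Neither overlapped, with log2 changes of 0.15 and 0.11 and limma adjusted p-values of 0.252 and 0.351. Psmd3, Psmd8, Psmd11 and Psmd13 of the lid overlapped, with log2 changes of 0.01, -0.03, 0.08 and -0.06.

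The large scaffold subunits of the base, Psmd1 and Psmd2, had knockout means of 26.3 RPKM ± 2.06 and 30.4 RPKM ± 0.619 and wildtype means of 25.3 RPKM ± 2.0 and 30.4 RPKM ± 3.8 (SD, n = 3 each). Psmd5, Psmd9 and Psmd10 are chaperones that help assemble the ATPase ring and are not part of the finished particle. Psmd9 measured 4.99, 4.91 and 5.67 RPKM in the knockout and 4.79, 4.47 and 4.6 RPKM in the wildtype. Its groups did not overlap, though by a small margin, and the log2 change was 0.14 (limma adjusted p 0.342). Psmd5 and Psmd10 overlapped, with log2 changes of 0.12 and -0.01.

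**Figure D4:**
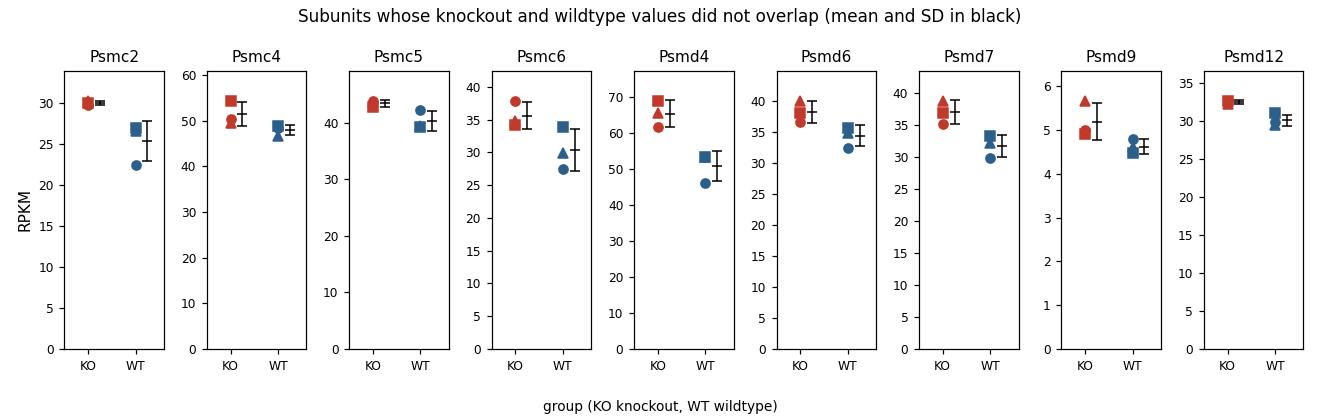
RPKM by library (knockout red, wildtype blue; circles, squares and triangles for replicates 1, 2 and 3) of the 9 members whose groups did not overlap as deposited, with mean and SD in black and axes from 0. All 9 are Psmc or Psmd genes with the knockout higher, and Psmc2 and Psmd4 alone stay parted after scaling.

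All 9 members with no overlap between groups were Psmc or Psmd genes and were higher in the knockout. They were 9 of 20 Psmc and Psmd genes, and 0 of 17 Psma and Psmb genes, beside 24.2% of all tested genes as deposited. Psmd9, among the 9, is an assembly chaperone and not part of the finished particle. No member was parted with the wildtype higher, beside 5.11% of all genes. After scaling, 2 of the 20 (Psmc2 and Psmd4) were parted with the knockout higher, beside 14.1% of all genes, and Psmd8 with the wildtype higher. Among the 17 core genes, 5 (Psma1, Psma4, Psma6, Psmb1 and Psmb3) were then parted with the wildtype higher, beside 13.1% of all genes. The median log2 change was 0.09 for the 20 and 0.01 for the 17 as deposited, and -0.01 and -0.09 after scaling. Within a library, the geometric mean RPKM of the 17 regulatory subunits without the 3 chaperones divided by that of the 14 constitutive core subunits does not depend on scaling. This ratio was 0.935, 0.951 and 0.882 in the knockout and 0.819, 0.893 and 0.893 in the wildtype. Knockout replicates 1 and 2 were above the wildtype range and replicate 3 was inside it, so the groups overlapped, and no test of the difference between the 2 particles was made.

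The members also moved together between wildtype libraries. Wildtype replicate 2 was the highest of its group for 27 of the 37 members (73.0%), beside 31.3% of all tested genes, and for 28 after scaling, beside 36.6%. Wildtype replicate 3 was the lowest for 23 (62.2%), beside 33.1% of all genes. Wildtype replicate 2 was also the wildtype library with the least Ucp1, at 1714 RPKM, and whether the 2 facts are linked was not tested. In the knockout, replicate 1 was the lowest for 19 members (51.4%), beside 34.5% of all genes. The summed RPKM of the 37 members was 1403, 1478 and 1479 in the knockout and 1398, 1484 and 1342 in the wildtype, so the groups overlapped in the total as well.

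**Figure D5:**
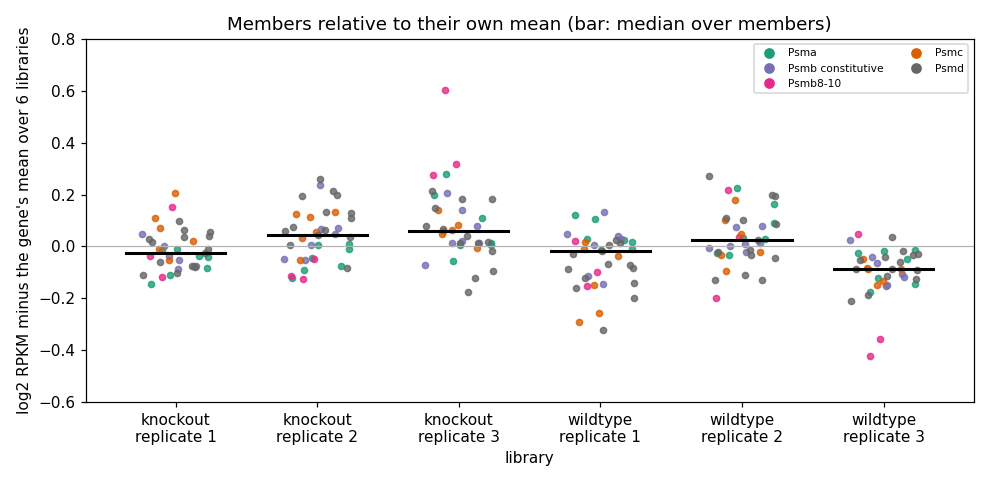
Each point is a member's log2 RPKM in a library minus its mean over the 6 libraries, coloured by class, with a bar at the median over the 37 members. The medians run from -0.09 in wildtype replicate 3 to 0.06 in knockout replicate 3, and Psmb8 and Psmb9 scatter widest.

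Partner genes outside the complex were counted in the same fit, from lists drawn up for this comparison. Over all tested genes 7.67% passed limma's test and 23.5% had an unadjusted p under 0.05, to be read beside the counts of each list. Among 11 activators and bound factors of the proteasome none passed limma's test (2 at an unadjusted p under 0.05), with a median log2 change of 0.09. The smallest p was that of AI314180, the mouse gene of the adaptor ECPAS, with a log2 change of 0.26 (limma adjusted p 0.0873). Among 5 assembly chaperones none passed (1 at an unadjusted p under 0.05), and Psmg2, part of the dimer that starts the Psma ring, had a log2 change of 0.29 (limma adjusted p 0.157). Among 13 tested genes of substrate delivery, such as ubiquitin and shuttle factors, none passed (1 at an unadjusted p under 0.05), and Zfand5, a proteasome activator of wasting muscle, had a log2 change of 0.22 (limma adjusted p 0.111).

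The NFE2L1 route holds the factor, its processing enzymes and its small MAF partners. It had 0 of 9 genes past limma's test, beside 7.67% of all tested genes. At an unadjusted p under 0.05 there were 2, beside 23.5% of all genes, and the median log2 change was 0.05. Mafg, a small MAF partner, measured 14.7, 16.2 and 14.5 RPKM in the knockout and 10.9, 12.7 and 12.3 RPKM in the wildtype. The groups did not overlap, as deposited or scaled, and the log2 change was 0.31 (limma adjusted p 0.0578). Nfe2l1 itself, named outside the rule because the route bears its name, measured 149, 173 and 149 RPKM against 123, 125 and 137 RPKM. Its knockout libraries were all above the wildtype, with a log2 change of 0.28 that did not pass (limma adjusted p 0.0921) and 0.19 after scaling.

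Of 14 genes of peptide presentation, 1 passed limma's test (7.14%, beside 7.67% of all tested genes). At an unadjusted p under 0.05 there were 2, where 23.5% of all genes met that mark. The gene that passed was Nlrc5, the transactivator of class I genes. It lies on chromosome 8 as Ucp1 and the members Psmb10 and Psmd7 do, and whether this bears on its level was not tested. Nlrc5 measured 1.56, 1.67 and 2.55 RPKM in the knockout and 0.934, 1.08 and 1.0 RPKM in the wildtype. The groups did not overlap, knockout replicate 3 was the highest, and the log2 change was 0.53 with an SE of 0.13 (limma adjusted p 0.0476). It passed in 3 of the 14 alternatives in which it was fitted, with adjusted p-values from 0.0413 to 0.225, and was lost after scaling (0.0833) and with the replicate block (0.0523). It was lost without any single library: 0.0641, 0.0970 and 0.0841 without knockout replicates 1, 2 and 3, and 0.128, 0.0713 and 0.0867 without wildtype replicates 1, 2 and 3. The list's median log2 change was 0.11, and 0.02 after scaling.

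Markers of other cell types differed between the same groups. All 21 skeletal muscle markers were called higher in the knockout, with a summed level of 1886 to 2146 RPKM there and 68.5 to 312 RPKM in the wildtype. Of these markers Trim63, a ubiquitin ligase of muscle, was listed at 0 in wildtype replicate 3, where Myl1 stood at 20.8 RPKM. Of 19 leukocyte markers, 13 were tested and 6 were called higher (46.2%, beside 7.67% of all tested genes), and 3 after scaling. The 6 were Mpeg1, Coro1a, H2-Ab1, Cd52, H2-Aa and Cd74. All 13 had log2 changes above 0, and 12 were parted with the knockout higher, beside 24.2% of all genes. The summed level was 181 to 244 RPKM in the knockout and 121 to 157 RPKM in the wildtype. Cd74 was its largest part, at 57.5, 72.1 and 81.8 RPKM against 42.9, 52.6 and 47.1 RPKM. The macrophage gene Mpeg1 had a log2 change of 0.89 (limma adjusted p 0.00576). Csf1r, Emr1 and Cd68, also macrophage genes, did not pass (limma adjusted p 0.151, 0.118 and 0.226). The lymphocyte markers Cd3e, Cd3g and Cd79a were below 1 RPKM throughout, as were the myeloid markers Aif1 and Itgax. Which kind of leukocyte differed was not tested. Knockout replicate 3, the highest library for Psmb8, Psmb9 and Psmb10, also had the highest summed leukocyte level. Knockout replicate 2, the lowest knockout library for these 3 genes, had the next highest leukocyte level, at 217 RPKM. None of 10 endothelial markers was called (1 at an unadjusted p under 0.05), the smallest p being that of Cldn5 at an adjusted p of 0.0847 in limma. Of 12 brown adipocyte markers, Ucp1 was called lower and Elovl3, a fatty acid elongase, higher (log2 change 0.92, limma adjusted p 0.0403). The Elovl3 call was lost without knockout replicates 1, 2 and 3 (0.0608, 0.129 and 0.0830), without wildtype replicate 1 (0.0866) and after scaling (0.0711). Cidea, a lipid droplet protein that marks brown fat, stood at 1317 RPKM ± 47.3 in the knockout and 1394 RPKM ± 49.4 in the wildtype (SD, n = 3), and was picked as a check of the tissue. The part of muscle fibres or leukocytes in the changes of Psmd4, of the other regulatory subunits and of the inducible subunits was not tested.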

How the data were processed

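The authors deposited 1 table of RPKM values with decimal commas for 168326 transcript rows in 6 libraries; RNA was prepared with a TruSeq kit, per the labels' protocols. No header names the unit: low values multiplied by transcript length were whole multiples of 1 step in each library (96.0% to 96.3% within 0.1 reads), which gives RPKM and 15800000 to 18000000 reads, a similar precision in every library. CASAVA and bcl2fastq appear in the submitters' processing notes; which aligner, build or annotation was used is not given in the sources here. Rows without a gene identifier (23170, or 13.8%) were left out of tests, and 1 row was kept per gene: RefSeq first, then the highest mean.

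Genes averaging 1 RPKM or more in the knockout or the wildtype were tested on log2(RPKM + 1) with limma 3.58.1 in R 4.3.3, with an intensity trend and genotype only, two-sided, Benjamini-Hochberg adjusted over all 11562 genes at 0.05. A fold change on this scale understates that of low genes. On simulated data limma recovered 76.1%, 97.0% and 100.0% of changes of 0.58, 1 and 2 (log2) for this comparison among 11014 genes, and 3.7% of its calls were unchanged genes. There 200 genes changed in either direction, with the same spread setting for all genes and no shift between groups. Changes as small as the 0.36 of Psmd4 were not simulated, so their recovery was not tested. Ratios within libraries were compared by exact permutation tests (scipy 1.17.1). Alternatives were library scaling, pseudocount 0.1, no filter or a filter at 5 RPKM, other rows per gene, other variance models, a replicate block and leaving out each library. Shared sequence was counted in 50-base windows of GENCODE M21 transcripts of the reference, which may not be the authors' annotation.

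The members and lists were chosen with earlier results of these data known. Every member is named. Of each related list, called members up to 3 or the gene with the smallest p were to be named. The muscle list gives fewer here and the leukocyte list gives more. Some leukocyte markers that were not called are named beside them.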

Additional observations from a re-analysis of the deposited data

How the results depend on the processing

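The test of Psmd4 was the only call among the members, so the count of members called and of Psmd genes called fell from 1 to 0 with library scaling, without a filter on low values and without the intensity trend, and ran from 0 to 1 when single libraries were left out. No other member passed under any of the 15 alternatives. Over all genes, 454 were called at a mean of at least 5 RPKM, and 455 to 849 without single libraries (474 and 455 without knockout replicates 1 and 2). Peptide presentation had 0 calls with scaling, without a filter, at 5 RPKM, with the summed rows and with the highest row, and 0 to 1 without single libraries. The NFE2L1 route had 1 call with the summed rows and 1 with the highest row. Leukocyte markers had 3 calls with scaling, without a filter and at 5 RPKM, and 2 to 7 without single libraries; endothelial markers had 0 to 1 and brown adipocyte markers 1 to 2 without single libraries. Brown adipocyte markers had 1 call with scaling, without a filter, at 5 RPKM and with robust variance. Median log2 changes after scaling were -0.01 for all genes, -0.04 for the members, -0.11 for Psma, -0.07 for constitutive Psmb, 0.00 for Psmc and -0.02 for Psmd. The median of all genes was 0.04 without a filter and 0.10 with summed rows, and that of constitutive Psmb ran from -0.04 to 0.06 without single libraries. The median of Psmb8 to Psmb10 ran from 0.00 (without knockout replicate 3) to 0.32. The log2 ratio of Psmb8 to Psmb5 ran from -0.17 to 0.24 and that of Psmb10 to Psmb7 from -0.04 to 0.19 without single libraries; it was -0.17 and -0.08 for the first without knockout replicate 3 and wildtype replicate 3, and -0.03 and -0.04 for the second without knockout replicate 3 and wildtype replicate 2. The sign of uncalled members turned for 11 with scaling, for 1 with summed rows, for 3 with the highest row and for 4 to 8 without single libraries. The cause of these shifts was not tested.

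Deviations of same-numbered libraries from their group means correlated at 0.092, 0.038 and -0.018, so the numbers were not taken as pairs. With the replicate block, 775 genes were called in all, Psmd4 was still called (limma adjusted p 0.0469), substrate delivery had 1 call, and no other count moved by over 1.5 times. The 1 call of peptide presentation then was Tap1 (0.0486) in place of Nlrc5 (0.0523), and without wildtype replicate 2 it was Irf1, both named after their values were seen. Depth limits the low members most: Psma5 rests on about 70 to 107 reads and Psmb9 on 108 to 193 per library, with GENCODE lengths taken for the authors'.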
